A study of Mus musculus with 4 samples.

Results

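The 40 genes described here are the Wnt ligands, the Frizzled receptors and the secreted antagonists with their close relatives. They were taken by symbol from the deposited tables. The symbols start with Wnt, Fzd or Sfrp and a number or with Dkk, or are Frzb and Wif1. Every row that matched was kept, and this rule was set with earlier results of these data known. The rule gave 19 ligand genes, 10 receptor genes and 11 antagonist genes or relatives, out of 21883 features in each table. All 4 libraries came from wild-type BL6/C57 young adult males whose sciatic and femoral nerves on the left had been transected 7 days before. There was 1 library for each of 4 groups: ipsilateral DRG (dorsal root ganglia of lumbar levels 4 to 6, which hold the cell bodies of the cut sensory neurons), contralateral DRG, ipsilateral lumbar dorsal spinal cord and contralateral lumbar dorsal spinal cord. The contralateral samples come from operated animals and are not uninjured tissue, and the labels do not say whether a library pools animals. With 1 library per group there was no replicate check and no test of the conditions.

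Wnt proteins are lipid-modified secreted signals that bind Frizzled receptors on the cell surface. With the co-receptors Lrp5 and Lrp6 they stabilise beta-catenin, which enters the nucleus and acts with TCF/LEF factors, and through other partners they act on cell polarity, the cytoskeleton and calcium. Secreted Frizzled-related proteins (the Sfrp genes and Frzb) and Wif1 bind Wnt proteins outside the cell, while Dkk1, Dkk2 and Dkk4 bind the co-receptors. In the nervous system the family is known for patterning the dorsal spinal cord, guiding axons and directing the growth of blood vessels into neural tissue.

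Levels are in FPKM, a fragment count divided by transcript length and by the total of mapped fragments, so levels of different genes can be set side by side within a library. A gene was taken as measured in a tissue if 1 of its libraries or both reached 1 FPKM. The log2 ratio is the ipsilateral over the contralateral level after adding 1 FPKM to each, which understates differences of low genes. A log2 ratio of 1 or more, or of -1 or less, counted as 2-fold. Plain folds are ipsilateral over contralateral FPKM without that addition, and their 95% intervals come from a standard error derived from the authors' deposited table. These intervals describe the libraries, leave out variation between animals, and are the only measure of precision, because the number of reads is not given.

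The libraries carried the markers of their labelled tissues. All 10 sensory neuron markers were measured in DRG and 5 of them in cord, where the 10 summed to 200 FPKM contralaterally and 238 FPKM ipsilaterally and Trpv1 was listed at 0 on both sides; oligodendrocyte markers summed to 7040 FPKM in contralateral and 6318 FPKM in ipsilateral cord. Between the sides, the marker sums moved in several cell types. In DRG, the 10 pan-myeloid markers summed to 53.0 FPKM contralaterally and 143 FPKM ipsilaterally, the 10 fibroblast and meningeal markers to 435 and 876 FPKM, and the 10 sensory neuron markers to 3376 and 2401 FPKM. In cord, the pan-myeloid markers summed to 76.1 FPKM contralaterally and 347 FPKM ipsilaterally, and the 10 fibroblast and meningeal markers to 178 and 224 FPKM. Ptgds alone was at 151 and 191 FPKM of these last sums. Only 6 of the 10 fibroblast and meningeal markers were measured in cord, 5 above 0 and 1 below. In bulk tissue, fewer cells of a type and less RNA per cell cannot be told apart.

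Of the 40 members, 26 reached 1 FPKM in at least 1 of the 4 libraries, and the other 14 stayed at or below 0.918 FPKM throughout. In DRG 19 were measured and in cord 22, of which 15 were measured in both tissues. Dkk3 had the highest level of the family in 3 of the 4 libraries. In ipsilateral DRG, Sfrp5 was marginally above it, at 41.8 against 41.0 FPKM. No ligand gene passed 10 FPKM in any library, the highest being Wnt5a at 9.63 FPKM in ipsilateral DRG. The Wnt3a, Wnt8a and Dkk4 genes were listed at 0 in all 4 libraries, a listing that can also be a failed estimate.

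**Figure D1:**
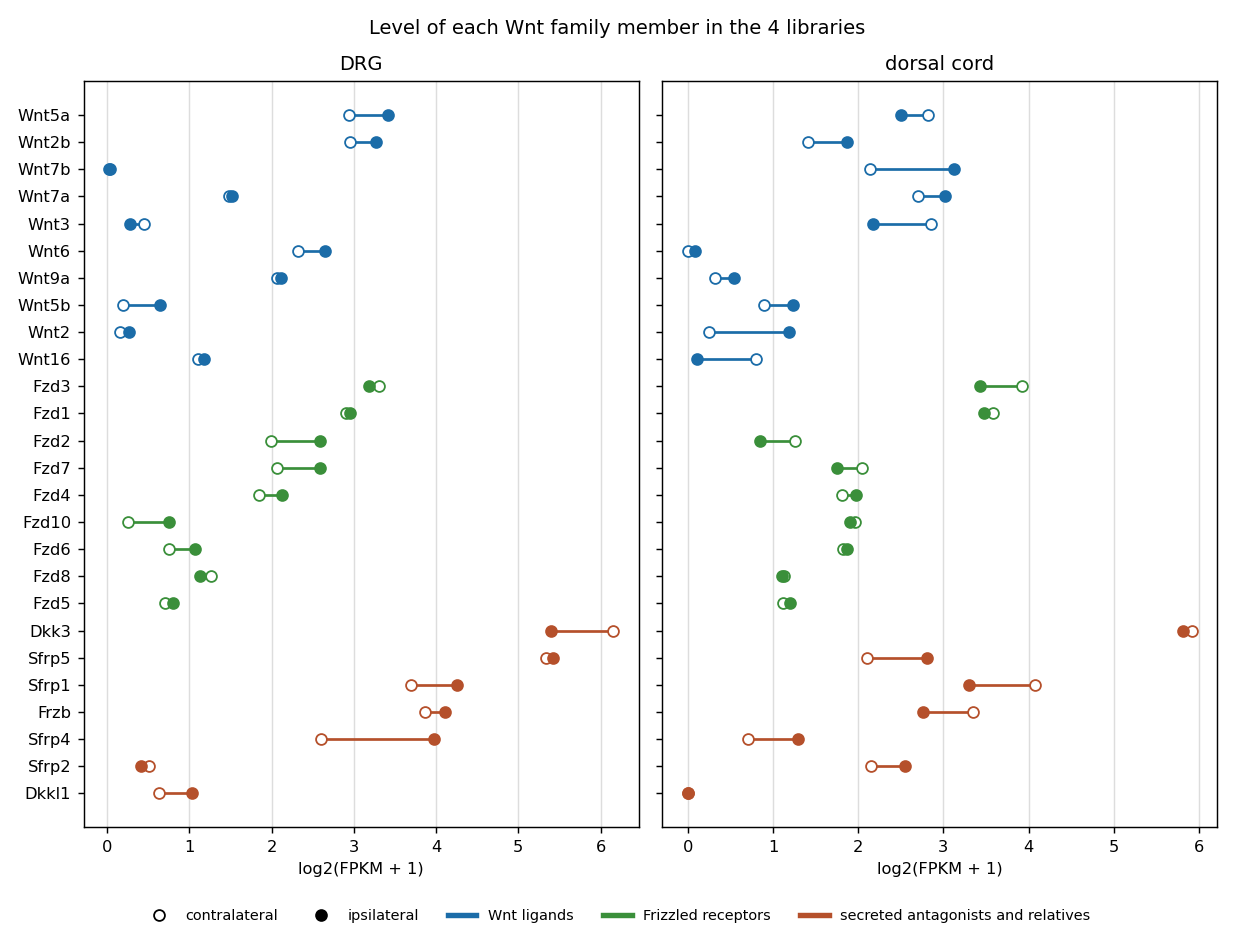
Level of the 26 members that reached 1 FPKM in any library, as log2(FPKM + 1), in DRG (left) and dorsal cord (right). Open circles are the contralateral and filled circles the ipsilateral library, 1 library each, and colours mark ligands, receptors and antagonists. The longest line in the DRG panel belongs to Sfrp4, at 5.06 and 14.7 FPKM.

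Ligand genes of the ganglion and the cord overlapped in part, with 3 (Wnt5a, Wnt2b and Wnt7a) measured in both tissues. In DRG, the 19 ligand genes summed to 25.4 FPKM contralaterally and 32.3 FPKM ipsilaterally. Wnt5a, a ligand known mainly for beta-catenin-independent signalling, was at 6.69 FPKM contralaterally and 9.63 FPKM ipsilaterally. Wnt2b was at 6.75 and 8.61 FPKM, and these 2 ligands made up 52.9% of the contralateral and 56.5% of the ipsilateral ligand sum. Wnt6 followed at 4.01 and 5.28 FPKM, Wnt9a at 3.18 and 3.33 FPKM, Wnt7a at 1.80 and 1.87 FPKM, and Wnt16 at 1.15 and 1.27 FPKM. All 6 measured ligands were slightly higher on the ipsilateral side, with log2 ratios from 0.04 to 0.47, and none reached 2-fold. Among all measured DRG features 56.1% were above 0. The authors' deposited table calls 0 of the 8 ligands tested, beside 4.64% of all tested DRG features called higher and 1.9% lower.

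In cord, the ligand genes summed to 26.3 FPKM contralaterally and 30.0 FPKM ipsilaterally. Wnt5a and Wnt2b made up 29.5% and 24.4% of these sums, less than in DRG. Wnt3 led the contralateral library at 6.20 FPKM and stood at 3.53 FPKM ipsilaterally. Wnt7a was at 5.50 FPKM contralaterally and 7.14 FPKM ipsilaterally, and Wnt7b, its close paralogue, at 3.42 and 7.69 FPKM. Both are known as the signals of neural tissue that guide brain and cord endothelium. Wnt5a was at 6.08 and 4.69 FPKM, and Wnt2b at 1.66 and 2.64 FPKM. Wnt7b took 13.0% of the contralateral and 25.6% of the ipsilateral ligand sum, and Wnt3 took 23.6% and 11.8%. Wnt5b, at 0.862 and 1.36 FPKM, shares its listed interval with Fbxl14 in the deposited tables, and reads of the 2 genes may not be separable there.

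**Figure D2:**
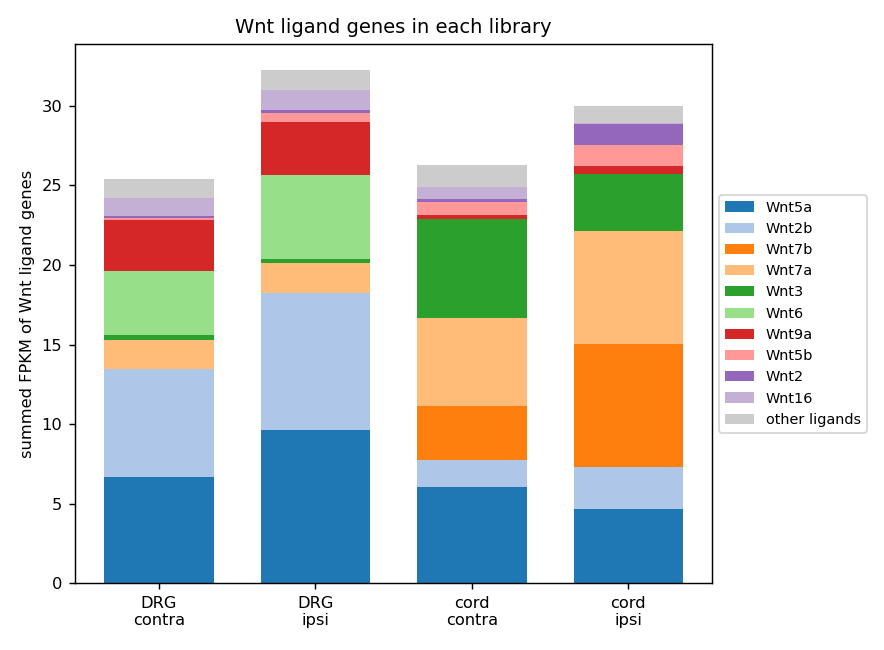
Summed FPKM of the 19 Wnt ligand genes in each of the 4 libraries, stacked by gene, with ligands under 1 FPKM in every library pooled in grey. The sums lie between 25.4 and 32.3 FPKM, with Wnt5a and Wnt2b the largest blocks in DRG, and Wnt3, Wnt7a and Wnt7b the largest beside Wnt5a in cord.

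Set across tissues, 11 of the 26 members were higher in both DRG libraries than in both cord libraries, and 10 were lower in both. Among all features measured in either tissue these shares were 31% and 38.7%. The tables were normalised separately, which makes levels across tissues approximate, and the 2 libraries of a tissue are opposite sides and not replicates. A difference of at least 2-fold between every DRG and every cord library, with 1 FPKM added, was seen for 5 members in each direction, against 7.88% of features higher in DRG and 9.12% higher in cord.

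The 5 members at least 2-fold higher in DRG were Sfrp5, Sfrp4, Wnt6, Wnt9a and Wnt2b. Sfrp5 was at 39.4 and 41.8 FPKM in contralateral and ipsilateral DRG and at 3.30 and 6.03 FPKM in the same sides of cord. Wnt6, at 4.01 FPKM or more in DRG, was listed at 0 in contralateral cord and at 0.0586 FPKM in ipsilateral cord. Wnt9a, at 3.18 FPKM or more in DRG, was at 0.248 and 0.456 FPKM in contralateral and ipsilateral cord.

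The 5 members at least 2-fold higher in cord were Wnt7b, Wnt3, Wnt7a, Sfrp2 and Fzd10. Wnt7b was at 0.0241 FPKM in contralateral and 0.0154 FPKM in ipsilateral DRG, against 3.42 FPKM or more in cord. Wnt3 was at 0.367 and 0.218 FPKM in DRG, against 3.53 FPKM or more in cord. Sfrp2, a secreted Frizzled-related gene, was at 0.425 and 0.326 FPKM in contralateral and ipsilateral DRG and at 3.45 and 4.87 FPKM in cord. The receptor gene Fzd10 was at 0.192 and 0.683 FPKM in DRG and at 2.90 and 2.73 FPKM in cord.

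Several ligand genes lie next to each other, in pairs known to be ancient. In the mm9 coordinates of the files 4 pairs of members were less than 100 kb apart, and all 8 genes were ligands. Wnt6 (chromosome 1, 74818465 to 74831893) and Wnt10a (74838592 to 74850749) are separated by 6.70 kb, yet Wnt6 was at 4.01 and 5.28 FPKM in contralateral and ipsilateral DRG while Wnt10a was at 0.391 and 0.333 FPKM. Wnt9a (chromosome 11, 59120431 to 59147054) was at 3.18 FPKM or more in DRG, and Wnt3a, 16.2 kb away, was listed at 0. In cord, Wnt3 (chromosome 11, 103635488 to 103679335) was at 3.53 FPKM or more, and its neighbour Wnt9b, 24.4 kb away, was at 0.0633 FPKM or less. Wnt10b and Wnt1, 11.7 kb apart on chromosome 15, were both at 0.150 FPKM or less in every library.

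Of the 9 receptor genes that reached 1 FPKM in any library, 5 were higher in both cord libraries than in both DRG libraries, 2 were lower in both and 2 overlapped. Among all features measured in either tissue, 38.7% were higher in both cord libraries and 31% were lower in both. Levels across tissues are approximate here too. Fzd3, a Frizzled known for its part in axon guidance, was the highest of the 10 in every library except for ipsilateral cord, where Fzd1 stood at 10.1 FPKM against 9.73 FPKM. The sum of all 10 was 27.2 FPKM in contralateral and 32.1 FPKM in ipsilateral DRG, and 40.8 and 34.7 FPKM in the same sides of cord. In DRG, Fzd3 was at 8.90 FPKM contralaterally and 8.09 FPKM ipsilaterally, and Fzd1 at 6.49 and 6.76 FPKM. Fzd7 was at 3.18 and 5.0 FPKM and Fzd2 at 2.96 and 5.0 FPKM, the 2 largest log2 ratios among the DRG receptors at 0.52 and 0.60. The fold was 1.57 for Fzd7 (interval 1.02 to 2.42) and 1.69 for Fzd2 (1.06 to 2.68). The authors' deposited table calls neither (q = 0.263 for Fzd7 and q = 0.208 for Fzd2). Of the others in DRG, Fzd4, also the receptor of norrin, was at 2.61 and 3.38 FPKM, Fzd8 at 1.41 and 1.18 FPKM, and Fzd6 at 0.689 and 1.09 FPKM.

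In cord, 9 receptor genes were measured and 3 of them were above 0, beside 51.6% of all measured cord features, with log2 ratios from -0.50 to 0.17 over the 9. Fzd3 was at 14.2 FPKM contralaterally and 9.73 FPKM ipsilaterally, a fold of 0.686 with an interval of 0.488 to 0.963 and q = 0.181 in the authors' deposited table. Fzd2 was at 1.39 and 0.798 FPKM and Fzd7 at 3.11 and 2.37 FPKM. Fzd10 was at 2.90 and 2.73 FPKM, Fzd4 at 2.51 and 2.94 FPKM, Fzd5 at 1.17 and 1.29 FPKM and Fzd8 at 1.19 and 1.15 FPKM. For Fzd6, at 2.54 and 2.65 FPKM, the test has the status of a failure in the authors' deposited table. Fzd9 stayed under 1 FPKM in all 4 libraries.

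Between the sides of DRG, the antagonists held the largest log2 ratios of the measured members in either direction. Members under 1 FPKM in both DRG libraries are outside this ranking. Among them, Wnt5b was at 0.141 FPKM contralaterally and 0.562 FPKM ipsilaterally, a plain fold of 3.99, and was not called. Fzd10 had a plain fold of 3.56 and was not called either. Sfrp4, a secreted Frizzled-related gene (chromosome 13, 19715043 to 19724692), was at 5.06 FPKM contralaterally and 14.7 FPKM ipsilaterally, a log2 ratio of 1.38. It was the 1 of 19 measured members at least 2-fold higher, where 3.04% of measured DRG features were, and it ranked 186 from the top among 13137 measured features. The fold was 2.91 with an interval of 1.81 to 4.68, and the authors' deposited table calls it (q = 0.000594). Dkk3 (chromosome 7, 119259532 to 119302571), a divergent Dickkopf gene, was at 70.2 FPKM contralaterally and 41.0 FPKM ipsilaterally, a log2 ratio of -0.76 and rank 297 from the bottom. Its fold was 0.584 (interval 0.412 to 0.828), also called in the authors' deposited table (q = 0.0417). No member was 2-fold lower, against 0.784% of measured features.

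These were the 2 DRG calls among the 23 members the authors tested, 1 higher and 1 lower, beside 4.64% and 1.9% of all tested features in the authors' deposited table. Marker lists of several cell types moved in the same DRG libraries. All 10 fibroblast and meningeal markers were higher ipsilaterally with Sfrp4, with log2 ratios from 0.49 to 1.34 and none listed at 0, and the authors' deposited table calls 8 of them. The 10 pan-myeloid markers were all higher too, with log2 ratios from 0.61 to 1.92, and the authors' deposited table calls 7. All 10 sensory neuron markers were lower ipsilaterally with Dkk3, with log2 ratios from -1.05 to -0.01 and none listed at 0, and the authors' deposited table calls 3. Some markers of central glia and ependyma were lower as well: Slc1a2 was at 7.98 FPKM contralaterally and 2.34 FPKM ipsilaterally, Aqp4 at 5.10 and 2.04 FPKM, Mobp at 0.998 and 0.0376 FPKM and Foxj1 at 4.53 and 1.83 FPKM, all called in the authors' deposited table and chosen here with their values in view. Of the 8 astrocyte markers as a whole, 4 were above 0 in DRG, and the authors' deposited table calls Aldh1l1 higher (5.22 and 11.5 FPKM). The 3 measured oligodendrocyte markers were all above 0 in DRG, and the 2 measured ependymal markers were below 0. Mobp did not reach 1 FPKM in either DRG library. The part of any of these cell types in the levels of Sfrp4 and Dkk3 was not tested.

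The remaining antagonists in DRG were close or modestly higher ipsilaterally. Sfrp1 was at 11.9 FPKM contralaterally and 18.1 FPKM ipsilaterally, a fold of 1.52 with an interval of 1.06 to 2.18 and q = 0.192 in the authors' deposited table. Frzb, the gene of a Wnt-binding protein of the same family, was at 13.5 and 16.3 FPKM, and Sfrp5 at 39.4 and 41.8 FPKM. Together with Sfrp2, which stayed below 1 FPKM, the 5 Sfrp and Frzb genes summed to 70.4 FPKM contralaterally and 91.2 FPKM ipsilaterally. Dkk3 alone made up 49.7% of the antagonist sum contralaterally and 30.7% ipsilaterally. Dkkl1, a Dickkopf-like gene known from testis, was at 0.546 and 1.05 FPKM. The co-receptor-binding antagonists Dkk1 and Dkk2 and the Wnt-binding antagonist Wif1 were at 0.279 FPKM or less in all 4 libraries.

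**Figure D3:**
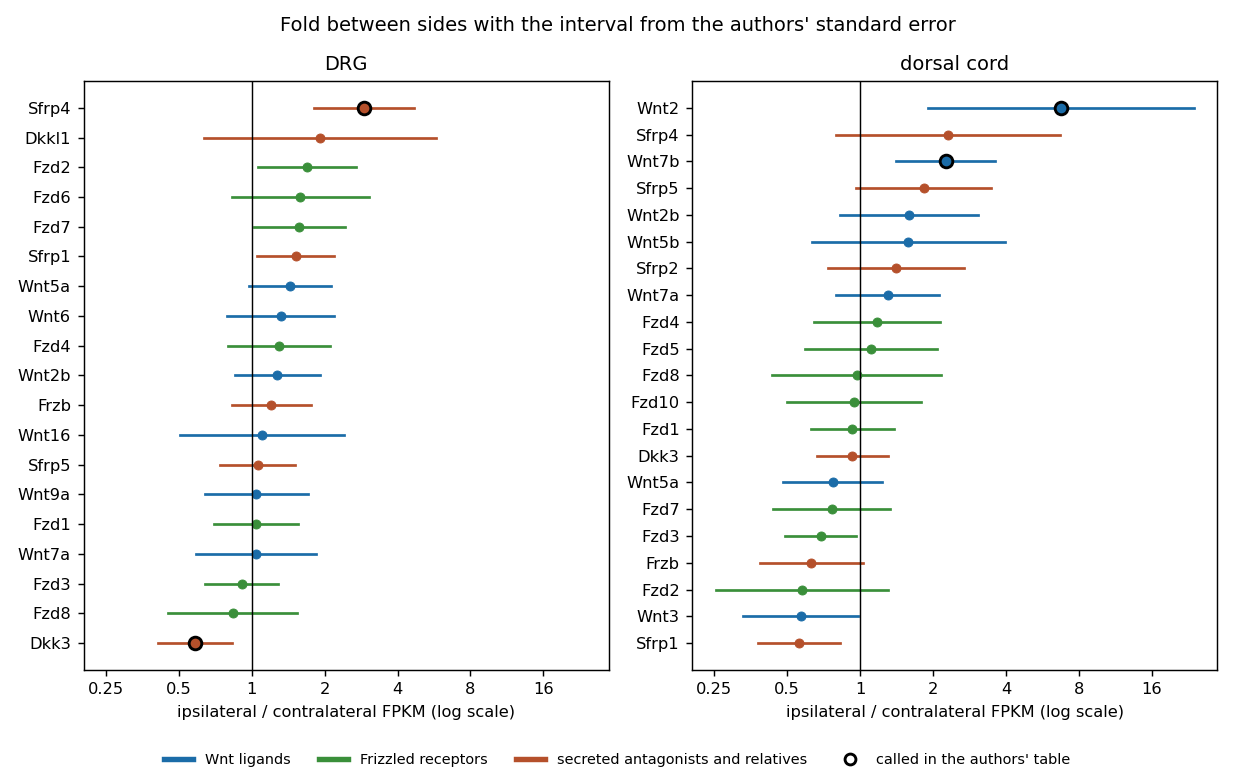
Ipsilateral over contralateral FPKM on a log axis for the measured members of DRG (left) and dorsal cord (right), with 95% intervals derived from the authors' deposited table. Points ringed in black are called there, namely Sfrp4 and Dkk3 in DRG and Wnt2 and Wnt7b in cord; Fzd6 in cord has no interval.

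Between the sides of the cord, the called members were ligands. Wnt7b (chromosome 15, 85365866 to 85412251) was at 3.42 FPKM contralaterally and 7.69 FPKM ipsilaterally, a log2 ratio of 0.98. Its fold was 2.25 with an interval of 1.4 to 3.61, and the authors' deposited table calls it (q = 0.0212). Wnt2 (chromosome 6, 17938939 to 17980445), a beta-catenin-activating ligand, was at 0.191 FPKM contralaterally and 1.29 FPKM ipsilaterally, a log2 ratio of 0.94. Its fold of 6.74 had the widest interval of the measured cord members, 1.91 to 23.7, and q was 0.0496 in the authors' deposited table. Wnt2 was measured only through its ipsilateral library.

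With 1 FPKM added, 0 of the 22 measured cord members were 2-fold in either direction, where 4.46% of measured cord features were 2-fold higher and 1.64% lower. With 0.1 FPKM added instead, Wnt7b, Wnt2 and Sfrp4 passed 2-fold, and no share of all features is given for that setting. Like Wnt2, Sfrp4 was measured in cord only through its ipsilateral library, and its fold interval there was 0.794 to 6.67. The 2 called members were both higher, out of 24 tested, beside 4.52% of tested cord features called higher and 1.55% called lower in the authors' deposited table. All 10 pan-myeloid markers were higher ipsilaterally in the same cord libraries, with log2 ratios from 0.58 to 3.28 and none listed at 0, and the authors' deposited table calls 9. The 5 ependymal markers in the tables were all higher too, at a sum of 17.7 FPKM contralaterally and 31.5 FPKM ipsilaterally, with 0 called. The 5 sensory neuron markers measured in cord were likewise all higher, with log2 ratios from 0.06 to 1.32 and 0 called. The part of these cells in the levels of Wnt7b and Wnt2 was not tested.

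Other cord members had lower ipsilateral levels, none of them called. Sfrp1 was at 15.8 FPKM contralaterally and 8.84 FPKM ipsilaterally, the lowest log2 ratio of the family in cord at -0.77, with rank 511 from the bottom of 13351 measured features. Its fold of 0.559 had an interval of 0.379 to 0.826 and q = 0.0543 in the authors' deposited table. Wnt3, at 6.20 and 3.53 FPKM, had a fold of 0.569 with an interval of 0.330 to 0.983 and q = 0.220 in the authors' deposited table. Frzb was at 9.20 and 5.78 FPKM and Dkk3 at 59.5 and 55.1 FPKM. In the other direction, Sfrp5 was at 3.30 and 6.03 FPKM, Sfrp4 at 0.626 and 1.44 FPKM, and Sfrp2 at 3.45 and 4.87 FPKM, and the authors' deposited table calls none of these 3. Wnt16, under 1 FPKM in cord, was at 0.749 FPKM contralaterally and 0.0748 FPKM ipsilaterally (q = 0.0628 in the authors' deposited table).

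Counted by their intervals, 4 of the 19 measured DRG members lay above 1 and 1 below, beside 10.1% and 6.35% of measured DRG features. They were Sfrp4, Fzd2, Fzd7 and Sfrp1 above, and Dkk3 below. Of the 21 measured cord members with an interval, 2 lay above 1 and 3 below, beside 12.4% and 7.99% of measured cord features. Those above were Wnt2 and Wnt7b, and those below were Sfrp1, Wnt3 and Fzd3. The median log2 ratio over the measured members was 0.28 in DRG and 0.01 in cord, against 0.05 and 0.02 over all measured features. In DRG 16 of the 19 were above 0 and in cord 11 of the 22, beside 56.1% and 51.6% of all measured features. Because 2 DRG members and 4 cord members were measured through 1 side only, these medians are a description.

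Of the 15 members measured in both tissues, 6 were higher ipsilaterally in both, 3 were lower in both and 6 went in opposite directions, as did 48.5% of all features measured in both. All 6 opposite members were higher in ipsilateral DRG and lower in ipsilateral cord. They were Sfrp1, Frzb, Wnt5a, Fzd1, Fzd2 and Fzd7. The 48.5% covers opposite directions of either kind, and no share is given for this direction alone. Fzd1 was near 0 in both tissues, with log2 ratios of 0.05 in DRG and -0.10 in cord. Sfrp1 had the widest contrast, with log2 ratios of 0.56 in DRG and -0.77 in cord, and was the member whose intervals left out 1 in opposite directions. The difference between tissues was not tested.

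**Figure D4:**
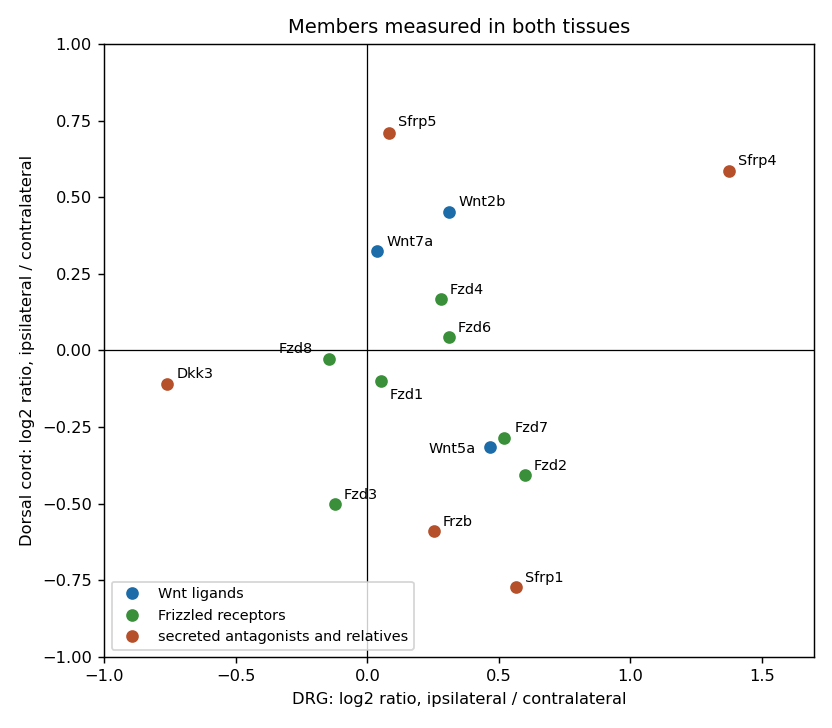
Log2 ratio of ipsilateral over contralateral FPKM (1 FPKM added) in DRG (horizontal) and dorsal cord (vertical) for the 15 members measured in both tissues. Sfrp4 lies farthest right at 1.38, Dkk3 farthest left at -0.76, and the 6 members in the lower right are higher in ipsilateral DRG and lower in ipsilateral cord.

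Other genes of the pathway were followed in 8 lists with 113 genes in the tables, ordered from Wnt secretion to nuclear targets. In DRG 97 were measured, 1 was 2-fold higher and 0 were 2-fold lower, and the authors' deposited table calls 4 higher and 1 lower of 106 tested. Over all DRG features, 3.04% were 2-fold higher and 0.784% lower, and 4.64% and 1.9% were called. In cord 94 were measured, 1 was 2-fold higher and 2 were 2-fold lower, and the authors' deposited table calls 4 higher and 3 lower of 100 tested. Over all cord features the shares were 4.46% and 1.64% for 2-fold and 4.52% and 1.55% for calls. The median log2 ratio of the pathway genes was 0.18 in DRG and 0.01 in cord, beside 0.05 and 0.02 over all measured features.

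The measured genes for making and releasing Wnt proteins stayed within 2-fold between sides. The largest absolute log2 ratio was that of Vps35 in cord, -0.47, at 51.1 FPKM contralaterally and 36.7 FPKM ipsilaterally. Porcn, the acyltransferase that adds the lipid, was at 7.82 FPKM contralaterally and 8.10 FPKM ipsilaterally in DRG and at 14.0 and 11.2 FPKM in cord. Wls, the carrier of Wnt proteins to the cell surface, was at 20.5 and 22.9 FPKM in DRG and at 18.6 and 15.2 FPKM in cord. None of the 5 measured genes of this list was called in the authors' deposited table in either tissue. Over all tested features, 4.64% were called higher and 1.9% lower in DRG, and 4.52% and 1.55% in cord.

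Of the 7 pathway calls in cord in the authors' deposited table, 3 were in the co-receptor list. Of its 15 genes tested in cord, Ror1, Gpc3 and Lrp5 were called higher in the authors' deposited table, beside 4.52% of tested cord features. Lrp5 was at 2.34 FPKM contralaterally and 5.47 FPKM ipsilaterally, with a fold interval of 1.42 to 3.85 derived from the authors' deposited table. Lrp6, the other co-receptor, was at 17.7 and 18.1 FPKM. Ror1, a receptor tyrosine kinase that binds Wnt5a, was at 0.267 and 1.59 FPKM (log2 ratio 1.03), the 1 pathway gene of these lists that was 2-fold higher in cord, measured only through its ipsilateral library. Gpc3, a cell-surface heparan sulfate proteoglycan, was at 6.09 and 12.9 FPKM in cord and at 39.8 and 77.8 FPKM in DRG, called higher in both by the authors' deposited table. Lrp5 in DRG was at 2.17 and 3.23 FPKM and Lrp6 at 17.4 and 20.5 FPKM, neither called.

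R-spondins are secreted proteins that strengthen Wnt signals through the Lgr receptors. Rspo1 was at 5.15 FPKM contralaterally and 10.2 FPKM ipsilaterally in DRG (q = 0.068 in the authors' deposited table) and at 2.31 and 4.76 FPKM in cord. Lgr6 was at 4.72 and 1.41 FPKM in cord, a log2 ratio of -1.25 and the 1 call of this list in the authors' deposited table (q = 0.00907). Of this list 9 genes were tested in cord, where 1.55% of all tested features were called lower. Lgr5 was at 6.24 and 3.25 FPKM in cord and was not called. Of the other antagonists outside the family, Tmem88 was 2-fold lower in ipsilateral cord, at 3.88 and 1.37 FPKM, and not called.

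Inside the cell, beta-catenin itself (Ctnnb1) was at 171 FPKM contralaterally and 202 FPKM ipsilaterally in DRG and at 164 and 161 FPKM in cord. Of the 22 relay and destruction complex genes, all measured, 0 were called in DRG and 1 in cord by the authors' deposited table, Apc2 at 10.2 and 17.8 FPKM. Over all tested features, 4.64% were called higher and 1.9% lower in DRG, and 4.52% and 1.55% in cord. Among the nuclear partners, the corepressor gene Tle3 was called higher in DRG (9.04 and 13.9 FPKM). Ctnnbip1, an inhibitor of beta-catenin, was called lower in cord (41.2 and 22.8 FPKM), both in the authors' deposited table. Lef1 was under 1 FPKM in both DRG libraries and at 0.936 and 1.84 FPKM in cord.

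Of the common readout genes of beta-catenin signalling, 8 of 11 measured were above 0 in DRG and 5 of 7 in cord, beside 56.1% and 51.6% of all measured features. Axin2, the most general of them, was at 2.80 FPKM contralaterally and 1.91 FPKM ipsilaterally in DRG and at 4.20 and 5.51 FPKM in cord, and Nkd1 at 1.66 and 1.73 FPKM in DRG and 3.19 and 4.96 FPKM in cord. The authors' deposited table calls neither in either tissue. Of the 12 target genes tested in DRG, Fst and Wisp1 were called higher in the authors' deposited table, beside 4.64% of all tested features. Fst, encoding the activin antagonist follistatin, was at 1.57 and 26.9 FPKM, with a fold interval of 9.93 to 29.5 derived from the authors' deposited table. Wisp1 was at 1.33 and 3.06 FPKM. Many signals besides Wnt are known to act on these target genes. In cord, Tnfrsf19 was called lower in the authors' deposited table, at 19.6 and 12.7 FPKM, 1 of 9 target genes tested there. In the polarity and calcium list, Camk2b was called lower in DRG, at 13.6 and 8.87 FPKM, 1 of 22 genes tested. In cord, 0 of 19 tested genes of that list were called by the authors' deposited table. Over all tested features, 1.9% were called lower in DRG, and in cord 4.52% were called higher and 1.55% lower.

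**Figure D5:**
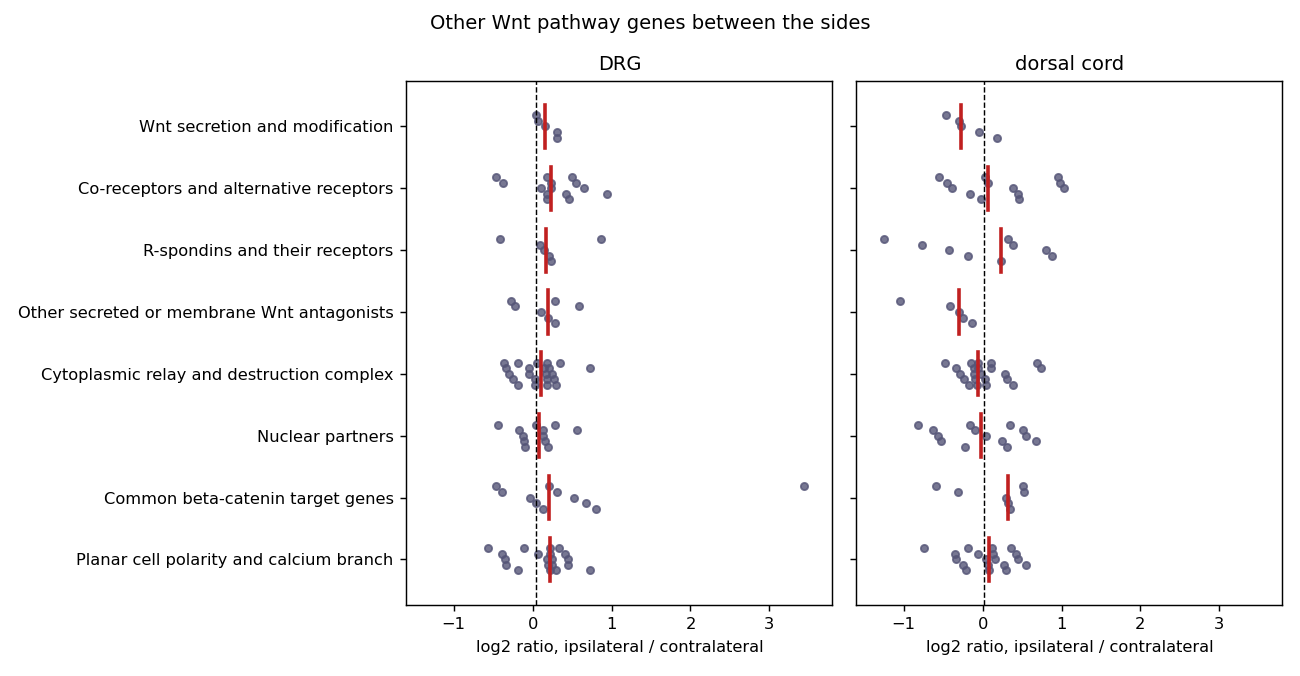
Log2 ratio of ipsilateral over contralateral FPKM (1 FPKM added) for the measured genes of 8 Wnt pathway lists in DRG (left) and dorsal cord (right). Each point is a gene, red bars are list medians and the dashed line is the median of all measured features; the point at 3.44 in DRG is Fst.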

How the data were processed

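RNA was sequenced from 4 mouse tissue samples, 1 library per group. The tools were TopHat 1.4.0 and Cuffdiff 1.3.0 on genome build mm9, per the submitters' processing notes; annotation, filters and strand setting are not given in the sources used here. Per the file headers, the authors deposited FPKM per library, a log2 fold change, a test statistic (a score), p-values and q-values. Read depth is unknown. The standard error was taken as the log2 fold change divided by the test statistic; the authors' p-values matched a two-sided normal test of that statistic within 0.001 for 100% of features with both libraries above 0. Their calls correspond to q up to 0.05. Ratios were computed over the whole table with pandas 2.3.3 and tested on simulated data, with the columns taken as contralateral first in DRG and ipsilateral first in cord. No other per-sample columns were left out (0). Members reaching 1 FPKM in any library are named. Other pathway genes named are Wls, Porcn, Lrp5, Lrp6, Ctnnb1, Axin2, Lef1 and Nkd1. The rest were picked from the 4 largest absolute log2 ratios of each list and tissue, and were mostly called genes. Some genes ranked first in their list but not called, such as Prickle3 in DRG and Nfatc3 in cord, were passed over. Low members named as a contrast, such as Wnt10a, were picked with their values in view. Members and lists were chosen with earlier results of these data known. Of 196 listed pathway and marker symbols, 6 did not match the tables. Alternatives were a pseudocount of 0.1 or 3 FPKM, a filter at 5 FPKM or none, median and upper-quartile rescaling, test status OK and the authors' calls.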

Additional observations from a re-analysis of the deposited data

Results flagged for a closer look

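Sfrp1 lay in opposite directions in the 2 tissues, with a log2 ratio of 0.56 in DRG and -0.77 in dorsal cord, and both intervals of its fold from the authors' deposited table left out 1. Camk2d, a calmodulin kinase gene of the calcium branch, did the same at 0.45 in DRG and -0.35 in cord. Each tissue has 1 library per side, so the difference between tissues was not tested.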

How the results depend on the processing

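The count of 2-fold higher DRG members stayed at 1 under every alternative run. The authors' calls gave 1 lower DRG member in place of 0, Dkk3, since a call needs no 2-fold difference. They gave 2 higher cord members in place of 0, Wnt7b and Wnt2, whose plain folds exceed 2 and whose log2 ratios fall short of 1 with 1 FPKM added. At a pseudocount of 0.1 FPKM, 3 cord members were 2-fold higher, because low values are then compressed less. No share of all features is given beside that count. The median of DRG members was 0.068 with no filter, where members near 0 enter, and that of cord members was -0.21 at a filter of 5 FPKM, where fewer genes enter. The log2 ratios of the 19 measured DRG and 22 measured cord members kept their direction under both other pseudocounts and both rescalings. Rescaling moved the ipsilateral libraries by at most 0.05 on the log2 scale. No paired analysis was possible because each group has 1 library and no result comes from a test between conditions. For the same reason no library could be left out. Depth is unknown, so members near 0 cannot be ranked or called absent.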
